A study of Mus musculus with 26 samples.

Results

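The genes described here build and drive the actin and myosin machinery of epithelial cells. They were chosen by name, by a rule that takes no measured values, though with earlier results of these data known. They number 48 of the 40481 genes in the mouse count tables and 48 of the 55093 genes in the human one. They are 2 actin isoforms, 3 heavy chains of non-muscle myosin II, 4 myosin light chains, 5 kinases, 4 tropomyosins, 6 proteins that bind, sever or cap actin, 9 genes of the Arp2/3 complex and its activators, 3 formins, 3 linkers of the ezrin, radixin and moesin family, 3 genes of the calponin family and 6 unconventional myosins.

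In gut epithelium, actin filaments fill the microvilli of the brush border and form a contractile belt at the cell junctions. Non-muscle myosin II slides along these filaments once its regulatory light chains are phosphorylated, which myosin light chain kinase and other kinases do. The Arp2/3 complex starts branched filaments and formins start straight ones, cofilin severs old filaments, and thymosins and profilin hold and deliver monomers. Many of these genes are known targets of serum response factor (SRF), whose cofactors MRTF-A and MRTF-B are held back by free actin monomers.

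RNA was sequenced from mice and cells in which Fgfr1op, the gene of a centrosomal protein, was deleted or knocked down. Mouse small intestinal spheroids, which are epithelial cultures in Matrigel, were Fgfr1op KO or WT (4 libraries each, 4 mice per group) at day 3 post-hydroxytamoxifen, with 250 nM of the drug given in culture. Small intestinal crypt-enriched cells came from Fgfr1op KO and WT mice, 6 or 9 days post-tamoxifen, with 6 libraries per genotype and 3 mice per genotype and day. Caco-2, a human colorectal adenocarcinoma line, carried a doxycycline-inducible lentiviral vector with 1 hairpin against the gene (shFgfr1op) or a non-targeting one (scramble), with 3 libraries each at day 3 post-doxycycline. The labels name no Cre driver, floxed allele, strain, sex or age for the mice; WT samples carry the same time labels as KO ones, and whether they carried a Cre is not stated. In the crypt table a column head gives the genotype, a number from 1 to 6 and a further number that is not explained. It leaves out the day, so both days were compared together. The labels do not say whether the Caco-2 libraries were grown as separate cultures, and their p-values may reflect technical spread alone.

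Libraries held 44152608 to 67630241 counts in spheroids, 48068740 to 103352863 in crypts and 37281821 to 50965004 in Caco-2. Levels are CPM, the counts of a gene relative to the scaled total of its library, given as mean ± SD. Fgfr1op itself was lower in each system, at 17.4 ± 1.98 against 23.2 ± 1.12 CPM in spheroids (n = 4 each; log2 fold change -0.42 ± 0.095 SE, edgeR adjusted p 0.117), 21.1 ± 5.22 against 32.9 ± 6.27 in crypts (n = 6 each; -0.65 ± 0.19, adjusted p 0.0261) and 6.82 ± 0.41 against 15.7 ± 0.21 in Caco-2 (n = 3 each; -1.20 ± 0.094, adjusted p 1.652e-14). The exact two-sided permutation p was 0.0286 in spheroids and 0.1 in Caco-2, each the smallest its design allows, and 0.00649 in crypts, where the smallest is 0.00217. The crypt groups overlapped, with KO libraries from 11.7 to 25.9 CPM and WT libraries from 25.2 to 39.0, and the edgeR call was lost without WT library 2 (-0.59) or 6 (-0.61). Esr1, the oestrogen receptor gene, had 32.1 to 45.2 CPM in crypt KO against 0.0263 to 0.266 in WT, and 14.6 to 19.1 in spheroid KO against 3.87 to 6.19 in WT; what lies behind this was not tested. Spheroid WT library 1 was the only spheroid library with Xist, and KO library 6 and WT library 6 were the only crypt libraries with the Y-linked Ddx3y at more than trace level, so sexes were mixed within 3 of these groups.

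Markers placed the samples in epithelium. Summed CPM of 8 epithelial markers ran from 13210 to 18060 in spheroids and from 8101 to 24280 in crypts, while 10 smooth muscle markers summed to 21.8 to 28.0 and 3.49 to 9.10. In Caco-2 the epithelial sum was 9116 to 9825 in shFgfr1op with a scramble median of 10110. Leukocyte markers summed to 16.5 to 41.0 CPM in spheroids and 32.1 to 83.4 in crypts. Fibroblast markers summed to 0.643 to 1.65 CPM in spheroids and 2.38 to 58.65 in crypts. In Caco-2, smooth muscle markers summed to 101.5 to 110 CPM and fibroblast markers to 518.2 to 556.9. The part of these markers in the values of the set was not tested.

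Crypt KO libraries 4, 5 and 6 stood apart from all other crypt libraries. On the first principal component, which held 56.0% of the variance, they lay between -124.3 and -101.7, and the other 9 between -5.16 and 64.4. Their stem cell markers (Lgr5, Olfm4 and 3 more) summed to 37.6, 33.5 and 23.3 CPM, against 499 to 972 in the other KO libraries and 864 to 2076 in WT. Enterocyte markers summed to 6237, 2651 and 5183 CPM in them and to at least 14050 in each other crypt library, and Paneth cell markers to 8224, 12410 and 7606 against at least 34840. Epithelial markers were at 22820, 24280 and 21080 CPM against 8101 to 14040 elsewhere, while markers of dividing cells lay within the range of the rest. In bulk RNA, fewer cells of a type and less RNA per cell cannot be told apart. Each day had 3 KO mice, and whether these 3 libraries are the KO libraries of a single day is not shown by the column heads. If they are, leaving them out takes a day from KO and not from WT. Every crypt call of the set below is given with these 3 libraries and without them, and the part of the shifted cell markers in it was not tested.

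**Figure D1:**
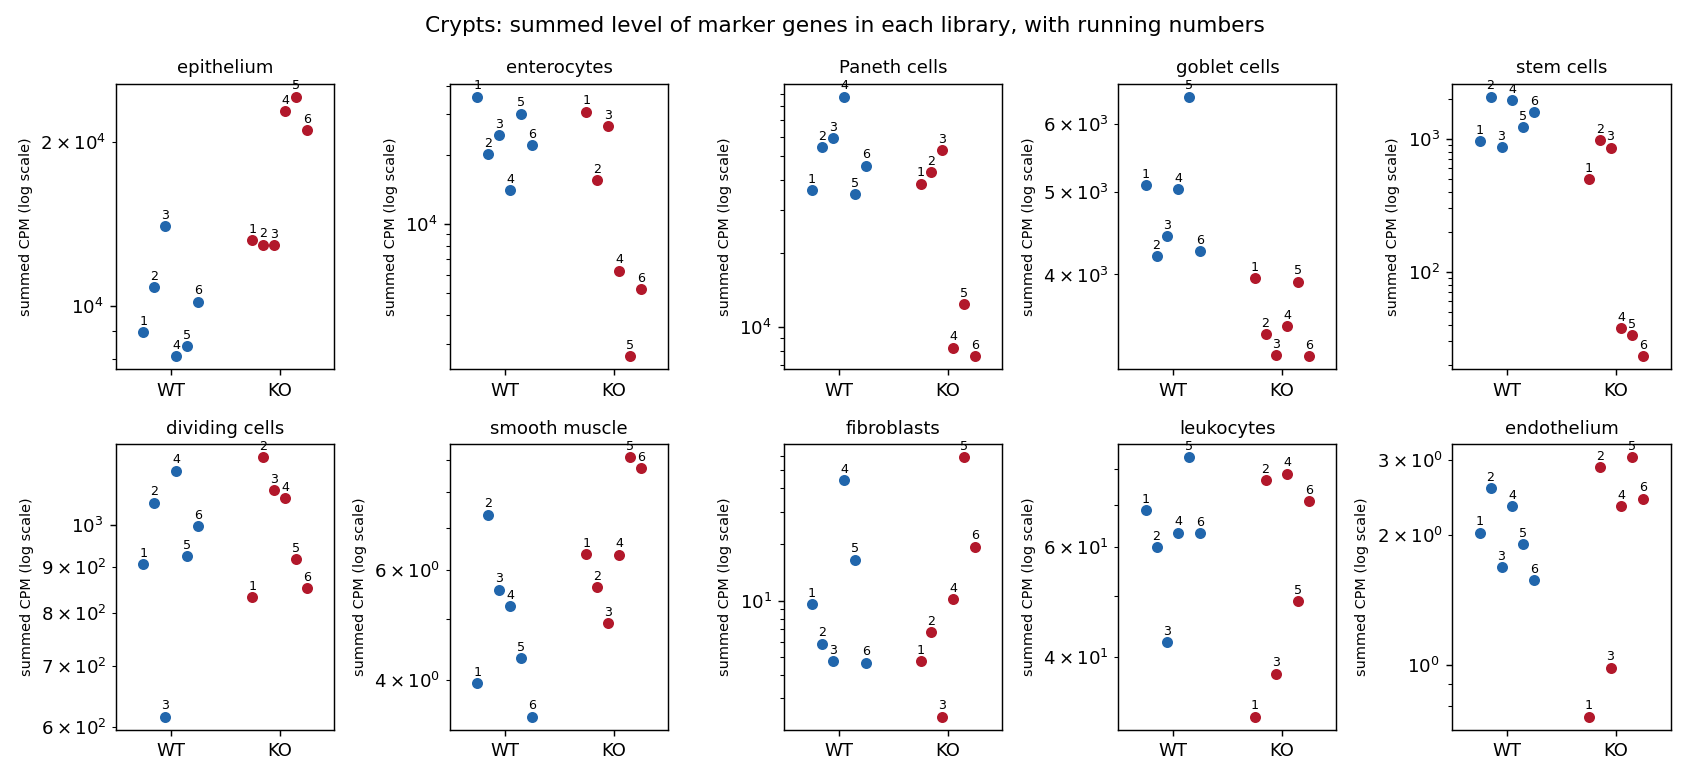
Summed CPM of 10 marker lists in each crypt library (log scale; WT in blue, KO in red; numbers are the running numbers of the libraries). KO libraries 4, 5 and 6 hold the lowest stem cell, enterocyte and Paneth cell sums and the highest epithelial sums, while smooth muscle markers stay under 10 CPM in all 12 libraries.

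In WT samples the set spanned several orders of magnitude. Per kilobase of exon, Actb (beta-actin) had 1766 CPM in WT spheroids and 6133 in WT crypts, above every other gene of the set in both. In spheroids Tmsb4x (thymosin beta 4) followed at 811.8 CPM per kilobase, then Actg1 (gamma-actin) at 761.1 and Tmsb10 at 752.0. Crypts had Tmsb4x at 802.3, Actg1 at 617.0 and the brush border myosin Myo1a at 402.3 CPM per kilobase. Of the myosin II heavy chains, WT spheroids had Myh9 at 109.4, Myh14 at 90.0 and Myh10 at 0.131 CPM per kilobase, and WT crypts had 6.88, 2.09 and 0.0864. The mouse tables were normalised separately and no test was made between them. As a group the set was expressed high: its median WT level was 324.2 CPM in spheroids against 18.3 over all genes tested, 125.0 against 7.75 in crypts, and in Caco-2 scramble 202.8 against 11.4.

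The crypts had the largest fold changes by the median over the set. Of the 48 genes, 25 rose in KO and 2 fell (edgeR quasi-likelihood test, adjusted p below 0.05), where 14.0% of all 16413 genes tested were called higher and 10.5% lower. The set's median log2 fold change was 0.54, against 0.055 over all genes. Without KO libraries 4 to 6, 7 of the 48 rose and none fell (0 in edgeR; over all genes 2.72% were called higher and 2.74% lower), and the median was 0.32. The 7 were Myh9, Tpm4, Cfl1, Tmsb10, Arpc1b, Cnn2 and Tagln2. Leaving out WT library 5 alone gave 17 higher, and WT library 4 alone 18, with calls over all genes not given for these fits. Setting aside the 3 libraries also leaves 3 KO libraries in the fit. The median log2 fold change of the set fell along with the number of calls. The part of fewer libraries in the lost calls was not tested.

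**Figure D2:**
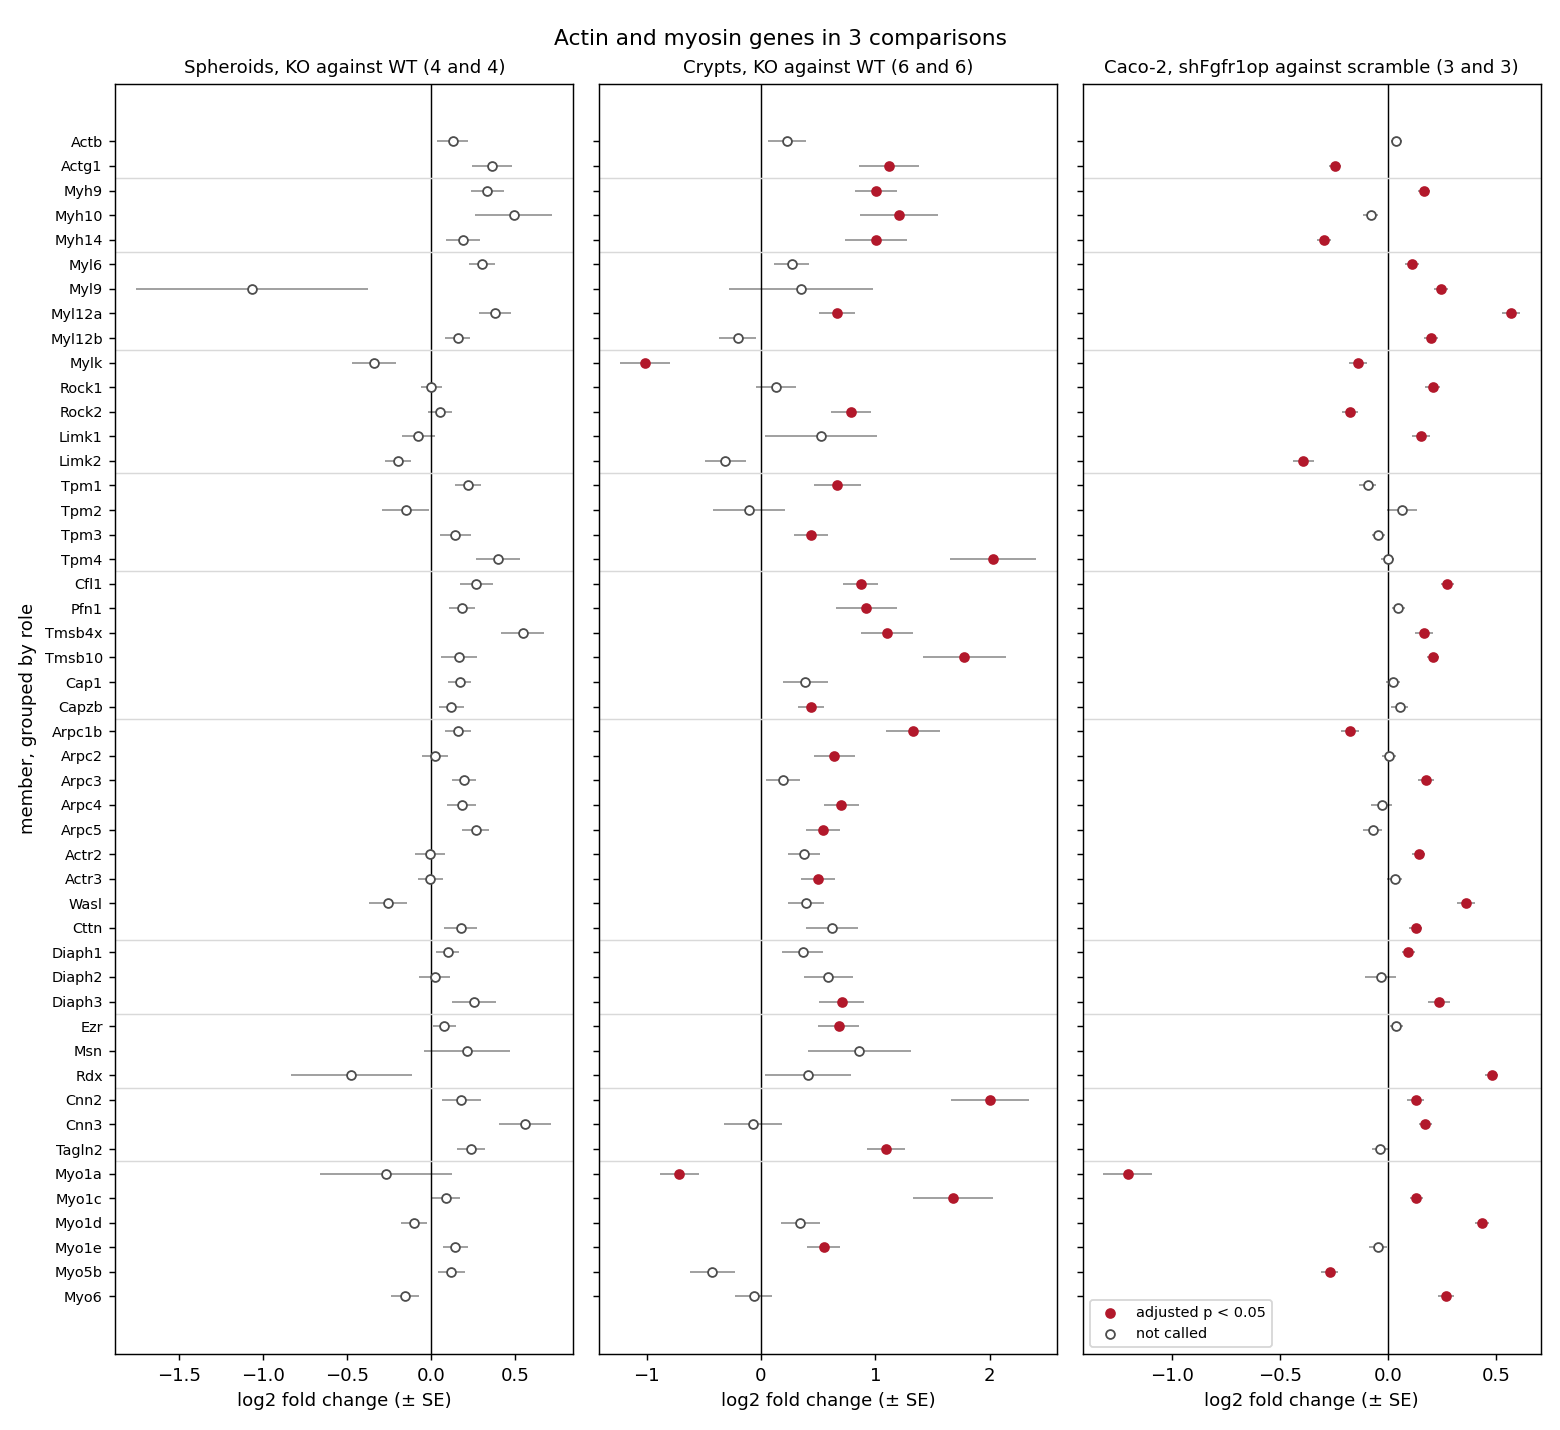
Log2 fold change ± SE of the 48 genes, grouped by role, in spheroids, crypts and Caco-2 (filled red points have an edgeR adjusted p below 0.05; each panel has its own horizontal scale). Red points fill most of the crypt panel to the right of 0, none stand in the spheroid panel, and in Caco-2 they lie on both sides of 0.

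The actins differed. Actg1 had 1657, 3448 and 5261 CPM as the lowest, median and highest of the 6 KO crypt libraries, and 1467, 1619 and 1821 in WT. Libraries 4 to 6 held the 3 highest levels, the KO libraries 2 and 3 lay next, and library 1 lay inside the WT range. Its log2 fold change was 1.12 ± 0.26 (adjusted p 0.00903), and 0.38 ± 0.17 (adjusted p 0.194) without libraries 4 to 6. Actb, the most abundant gene of the set, was not called, at 19230 ± 2442 against 16430 ± 3890 CPM (n = 6 each), with a 95% interval of the log2 fold change from -0.099 to 0.55. The mouse transcripts of both genes align at 87.8% identity over 1186 bases, and how reads with several matches were counted is not stated in the sources at hand.

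All 3 heavy chains of non-muscle myosin II, the motor of cell contraction, rose in KO crypts. Myh9 had 112.5, 191.5 and 238.5 CPM (lowest, median and highest) in KO and 70.96, 84.2 and 115.5 in WT. Only the lowest KO library, number 3, lay below a WT library. The log2 fold change was 1.01 ± 0.18 (adjusted p 0.00316), and 0.72 ± 0.19 (adjusted p 0.0412) without libraries 4 to 6. Myh14 had 19.1, 24.2 and 54.5 CPM in KO and 11.03, 14.4 and 22.8 in WT, with overlap, and KO library 1, not one of the 3 set apart, was the highest. Its log2 fold change of 1.01 ± 0.27 (adjusted p 0.0177) became 1.05 ± 0.32 (adjusted p 0.0687) without libraries 4 to 6, and the call was lost. In that fit KO library 1 had 54.5 CPM, while KO libraries 2 and 3, at 19.1 and 20.95, lay within the WT range. The call was also lost without WT library 5 (0.90). Myh10 was scarce, at 2.09 ± 1.04 against 0.904 ± 0.31 CPM (1.21 ± 0.34, adjusted p 0.0216; 0.52 ± 0.33, adjusted p 0.364, without them).

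Among the light chains, only the regulatory chain Myl12a was called. It had 305.9, 377.3 and 490.0 CPM in KO and 204.0, 235.8 and 315.5 in WT, where WT library 1 reached into the KO range. The log2 fold change was 0.66 ± 0.16 (adjusted p 0.00998), and 0.38 ± 0.17 (adjusted p 0.182) without libraries 4 to 6. Its neighbour Myl12b, whose transcript is 96.5% identical to it over 550 bases, was at -0.20 ± 0.16 and not called, so how reads were divided between the pair is uncertain. The essential light chain Myl6 was at 0.27 ± 0.15, and Myl9, the regulatory chain of smooth muscle and stroma, was near 0 at 0.350 ± 0.29 and 0.274 ± 0.19 CPM.

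The kinases that act on myosin and cofilin moved in different directions. Mylk, which encodes myosin light chain kinase, fell from 125.0 ± 22.0 to 61.8 ± 22.2 CPM, a drop of 50.5%. Its KO libraries had 38.4, 58.5 and 95.6 CPM (lowest, median and highest) and its WT libraries 90.9, 126.2 and 153.0, with KO library 1 above WT library 4. The log2 fold change was -1.02 ± 0.22 (adjusted p 0.00617), and -0.65 ± 0.19 (adjusted p 0.0584) without libraries 4 to 6. Rock2, a kinase that phosphorylates myosin light chains and LIM kinases, rose, with 38.7, 73.6 and 84.4 CPM in KO against 33.2, 39.3 and 43.8 in WT, with KO library 2 inside the WT range (0.79 ± 0.18, adjusted p 0.00786; 0.50 ± 0.19, adjusted p 0.135, without them). Its paralog Rock1 had a log2 fold change of 0.13 ± 0.17, and the cofilin kinases Limk1 and Limk2 of 0.53 ± 0.49 and -0.31 ± 0.18; none of these was called. Limk1 was scarce, at 0.197 against 0.136 CPM.

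Tropomyosins coat filaments and set which motors bind them, and 3 of 4 rose. Tpm4 had one of the larger changes of the set, 4.07-fold. Its KO libraries had 84.0, 179.8 and 366.9 CPM and its WT libraries 40.2, 45.9 and 61.2, without overlap. The 3 libraries that stood apart held 300.6, 366.9 and 257.4 CPM, and KO libraries 1 to 3 held 84.0, 102.1 and 88.7, still above each WT library. Accordingly the log2 fold change was 2.03 ± 0.38 (adjusted p 0.00403) with them and 0.90 ± 0.18 (adjusted p 0.0122) without. Tpm1 (0.67 ± 0.20) and Tpm3 (0.44 ± 0.15) rose with all libraries and were at 0.19 and 0.15, not called, without the 3. Tpm2, a muscle form, had 0.836 against 0.894 CPM.

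Of the genes that handle monomers, sever or cap filaments, 5 of 6 rose. Cfl1 (cofilin) had 623.1, 799.0 and 1046 CPM in KO and 387.6, 439.6 and 536.3 in WT, without overlap. Its log2 fold change was 0.87 ± 0.15 (adjusted p 0.00253), and 0.60 ± 0.16 (adjusted p 0.0386) without libraries 4 to 6. Tmsb10, a thymosin that binds monomers, had 183.6, 419.2 and 714.8 CPM in KO against 102.1, 113.9 and 182.2 in WT (1.78 ± 0.36, adjusted p 0.00578; 0.69 ± 0.18, adjusted p 0.0412, without them). Its groups were all but touching, with WT library 1 at 182.2 and KO library 3 at 183.6 CPM. Tmsb4x had 1510, 2284 and 3238 CPM in KO and 812.6, 1060 and 1538 in WT. The highest WT library lay above the lowest KO library, and the log2 fold change of 1.10 ± 0.23 (adjusted p 0.00532) was 0.57 ± 0.19 (adjusted p 0.0898) without the 3. Profilin (Pfn1, 0.92 ± 0.27) and the capping subunit Capzb (0.44 ± 0.11) rose with all libraries, and were at 0.69 (adjusted p 0.169) and 0.34 (adjusted p 0.187), not called, without the 3. Cap1, which recycles monomers from cofilin, was at 0.39 ± 0.20 and not called.

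The Arp2/3 group had 5 of 9 genes called, all higher. Arpc1b, a subunit of the complex, had 848.0, 1440 and 2004 CPM in KO and 411.6, 612.5 and 660.4 in WT, without overlap. It showed the split clearly, with 2004, 1912 and 1864 CPM in the 3 libraries that stood apart and 848.0, 1017 and 994.0 in KO libraries 1 to 3. The log2 fold change was 1.33 ± 0.23 (adjusted p 0.00273) with them and 0.73 ± 0.18 (adjusted p 0.0286) without. Arpc2, Arpc4, Arpc5 and Actr3 rose by log2 fold changes of 0.64, 0.70, 0.54 and 0.50. Without libraries 4 to 6 they were at 0.33, 0.49, 0.25 and 0.29 (adjusted p 0.313, 0.101, 0.340 and 0.336), and all 4 calls were lost. Not called were Arpc3 (0.19), Actr2 (0.38), the Arp2/3 activator Wasl (0.39) and the branch stabiliser Cttn (0.62), all of them on the positive side.

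Diaph3 was the formin called in crypts, with 6.40, 8.69 and 10.6 CPM in KO and 3.51, 5.26 and 6.73 in WT (0.71 ± 0.20, adjusted p 0.0201; 0.58 ± 0.25, adjusted p 0.180, without libraries 4 to 6). Leaving out WT library 5 also ended its call (0.62). Diaph1 and Diaph2 were at 0.36 and 0.59. Ezr, which ties actin to the membrane of microvilli, rose by a log2 fold change of 0.68 ± 0.18, with 0.62 ± 0.22 (adjusted p 0.108) without the 3. Its relatives Msn (0.86 ± 0.45) and Rdx (0.41 ± 0.38) were scarce and not called.

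The calponin family held the clearest changes. Tagln2 (transgelin 2), which binds and stabilises filaments, had the smallest p of the set. Its KO libraries had 738.5, 1005 and 1405 CPM and its WT libraries 398.6, 478.7 and 560.5, without overlap, for a log2 fold change of 1.10 ± 0.17 (adjusted p 0.00164) and of 0.79 ± 0.16 (adjusted p 0.0139) without libraries 4 to 6. Cnn2 (calponin 2) had 9.27, 21.7 and 39.0 CPM in KO and 4.82, 5.58 and 6.16 in WT, also without overlap. It was 4.01-fold higher (2.00 ± 0.34, adjusted p 0.00251), with 29.7, 39.0 and 30.9 CPM in the 3 libraries apart and 9.27 to 13.6 in the other KO libraries. Without them its log2 fold change was 0.99 ± 0.20 (adjusted p 0.0124). Cnn3, the third of the family, was at -0.067 ± 0.25.

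Unconventional myosins moved both ways. Myo1c, which links membranes to actin, had 41.2, 102.1 and 158.0 CPM in KO and 19.0, 31.3 and 40.2 in WT. The groups did not overlap, but 3 KO libraries lay close to the WT range and the 3 set apart lay at 139.3 to 158.0, and the log2 fold change of 1.68 ± 0.35 (adjusted p 0.00609) was 0.73 ± 0.23 (adjusted p 0.0710) without them. Myo1e, a class I myosin of membrane tension, rose by 0.55 ± 0.15 on the log2 scale, and was at 0.31 (adjusted p 0.308), not called, without the 3. Myo1a, the myosin that bridges microvillar actin to the membrane, fell from 1494 ± 315.3 to 911.4 ± 178.9 CPM. It had 718.0, 863.0 and 1160 CPM in KO and 1057, 1433 and 1944 in WT, with overlap. Both the libraries set apart and KO library 1 were low, and the log2 fold change was -0.71 ± 0.17 (adjusted p 0.00947) with all libraries and -0.56 ± 0.21 (adjusted p 0.123) without the 3. Beside this, 2 of the 10 enterocyte markers were called lower in KO crypts. Myo1d (0.34), Myo5b (-0.42) and Myo6 (-0.063) were not called.

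**Figure D3:**
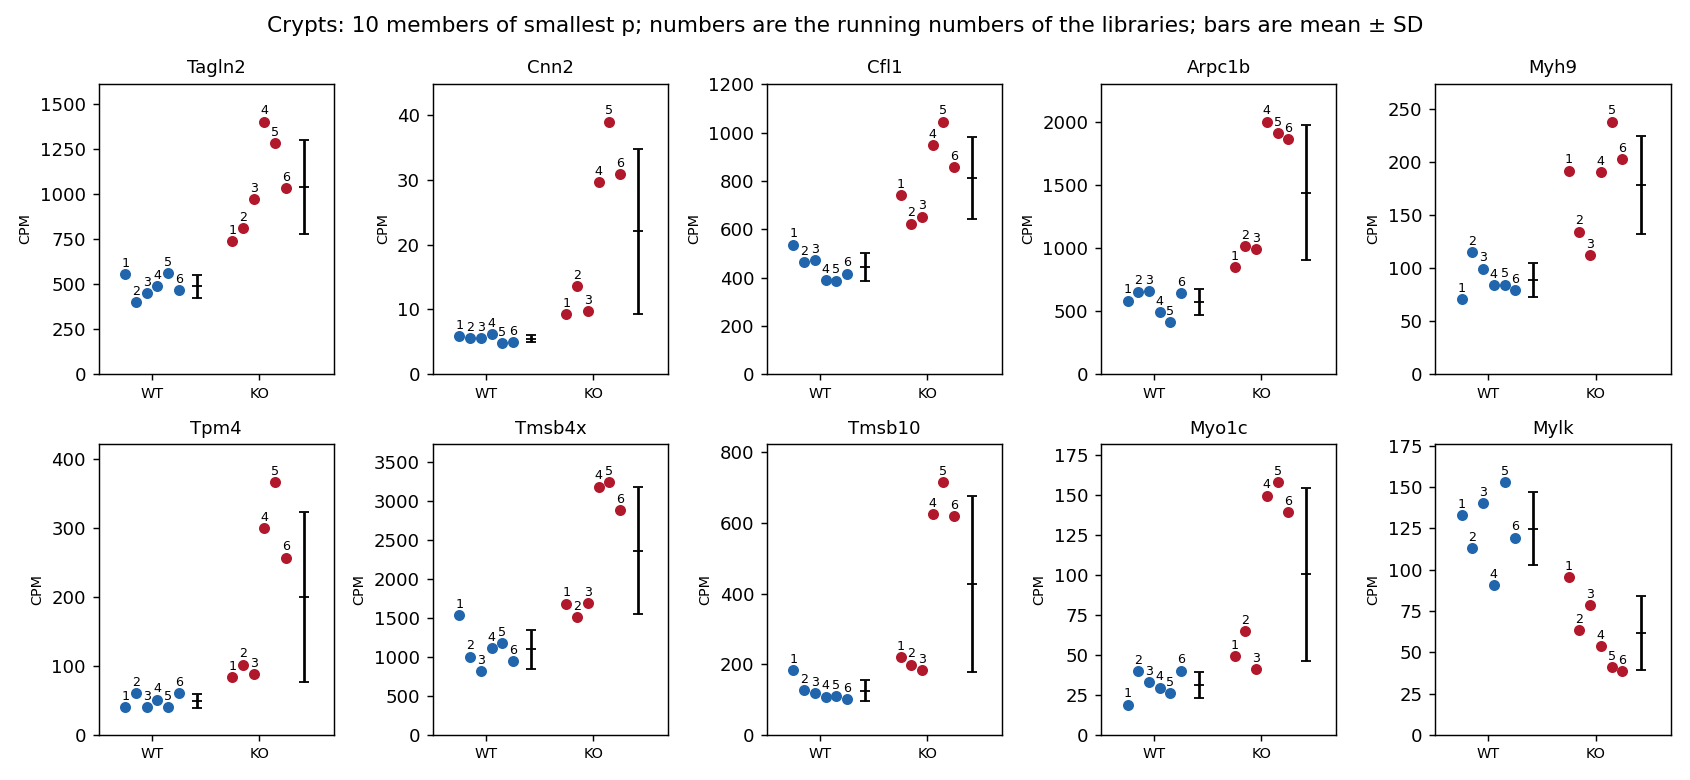
CPM of the 10 genes of smallest p in crypts, by library (WT in blue, KO in red; numbers are running numbers; black bars are mean ± SD, n = 6). KO libraries 4, 5 and 6 are the highest for Tagln2, Cnn2, Cfl1, Arpc1b, Tpm4, Tmsb4x, Tmsb10 and Myo1c and the lowest for Mylk, and for Tagln2, Cnn2, Cfl1, Arpc1b, Tpm4, Tmsb10 and Myo1c the other 3 KO libraries also lie above all WT libraries.

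The promoters of the set were searched, after the crypt values were seen, for the CArG box, the motif that SRF binds. The part of SRF in the crypt values was not tested. The windows ran from 250 bases before to 50 bases after the start of the RefSeq transcripts (GRCm38.p6), and 42 of the 48 genes had one; Actb, Rock1, Cttn, Diaph1, Myo1d and Myo5b did not. A box on either strand was present in 6 of the 42 (14.3%), and in 488 of all 27025 genes with a window (1.81%). Of the 25 genes that rose in crypts 4 had it (16%), and of the 17 others 2 had it (11.8%), Myl6 and Myl9. Among the 7 that also rose without libraries 4 to 6, Cnn2 was the 1 with a box. The 4 from genes that rose are shown, in windows of up to 50 bases with the box in capitals. They lie at chr11:120348556-120348605 on the minus strand for Actg1, and on the plus strand at chr10:79988524-79988573 for Cnn2, chr9:70207298-70207347 for Myo1e and chr6:113377863-113377892 for Arpc4.
Actg1: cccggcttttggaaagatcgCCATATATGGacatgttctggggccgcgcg
Cnn2: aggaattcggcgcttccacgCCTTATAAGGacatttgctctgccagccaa
Myo1e: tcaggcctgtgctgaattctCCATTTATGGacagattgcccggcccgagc
Arpc4: CCTAATTTGGtgcccaacctgaggtcgggc
The boxes are centred at -85, -51, -27 and -245 bases from the transcript starts. A match describes these letters only: no binding was measured, and most genes that rose, Tpm4, Tagln2 and Arpc1b among them, had no box in this window.

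Other genes of the pathway, in 6 lists with 88 entries, were next counted in crypts. Of 85 tested, 32 rose and 2 fell, beside 14.0% and 10.5% of all genes, with a median log2 fold change of 0.40. Without libraries 4 to 6, 8 rose and 0 fell in edgeR. Cotl1, which encodes a coactosin that binds filaments, rose from 21.4 ± 5.16 to 62.4 ± 15.03 CPM (1.54 ± 0.20, adjusted p 0.00109; 1.22 ± 0.20, adjusted p 0.00436, without the 3). Egr1, an immediate early gene driven by SRF, rose from 3.49 ± 0.74 to 13.8 ± 5.79 CPM (1.99 ± 0.27, adjusted p 0.00118; 1.39 ± 0.23 without), and the GTPase gene Rhoc from 58.5 ± 17.9 to 250.1 ± 122.3 (2.10 ± 0.34, adjusted p 0.00221; 1.27 ± 0.24 without). By list, 7 of 17 small GTPases and their effectors on myosin, 6 of 11 other actins and myosins, 8 of 19 other nucleators, 3 of 17 other monomer, capping and severing factors, 4 of 12 cross-linkers and 4 of 9 genes of the SRF list were higher, and 1 gene each of the actins and myosins and of the nucleators was lower. These counts by list are with all libraries. Without libraries 4 to 6, only Srf and Egr1 of the SRF list were called, both higher. The rest of that list tested there ran from -0.43 to 0.56 in log2 fold change. Srf itself, named after its values were seen, was at 8.82 ± 2.94 against 4.35 ± 0.97 CPM (1.02 ± 0.23, adjusted p 0.00715; 1.02 ± 0.28, adjusted p 0.0450, without the 3). The list of smooth muscle markers, which shares Tagln and Cnn1 with the SRF list and Acta2, Actg2 and Myh11 with the actins and myosins, had 1 of 8 tested genes called higher.

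In spheroids no gene of the set passed the test in either direction (0 of 48 in edgeR), where 0.189% of 15915 genes were called higher and 0.0440% lower. DESeq2 called 5 of the 48 higher and 0 lower, but it also called many more genes than edgeR over the whole table (totals are given at the end). At an unadjusted p below 0.05 in edgeR, 14 of the 48 lay higher in KO and 3 lower, beside 7.34% and 7.27% of all genes. The groups did not overlap for 4 of the 48, all higher, beside 4.55% higher and 4.02% lower over all genes. The log2 fold change was positive for 36 and negative for 12, with a median of 0.15 against -0.0018 over all genes, and the one value beyond 1 in size was that of Myl9 (-1.06 ± 0.69), which was scarce, at 0.289 CPM in KO.

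Tmsb4x had the smallest p among them. KO libraries 1 to 4 had 1778, 1935, 1208 and 1572 CPM and WT libraries 1073, 1217, 1079 and 1082. KO library 3 lay below WT library 2, and the other KO libraries lay above all WT libraries. The log2 fold change was 0.54 ± 0.13 (adjusted p 0.120).

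Without KO library 3, Tmsb4x (0.66), Myl12a (0.45) and Cnn3 (0.71) were called, while leaving out any other single library gave no call. With all libraries and no filter on low counts, 1 gene of the set was called. Both the fit without KO library 3 and the one without the filter also called more genes over the whole table than the main fit. Myl12a had 562.2, 596.0, 451.0 and 536.9 CPM in KO and 384.7, 450.7, 382.2 and 434.5 in WT, with no overlap but with KO library 3 and WT library 2 almost level (0.38 ± 0.095, adjusted p 0.135). Cnn3, a calponin, had 178.6, 216.4, 116.6 and 190.6 CPM in KO and 113.4, 124.9, 121.2 and 117.3 in WT (0.56 ± 0.16, adjusted p 0.169). Here KO library 3 sat within the WT range and the other 3 well above it.

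The light chain Myl6 had 614.7, 658.2, 552.3 and 579.6 CPM in KO and 535.3, 486.3, 446.3 and 482.6 in WT, without overlap (0.30 ± 0.079, adjusted p 0.143). Myh9 had 1592, 1730, 1678 and 2130 CPM in KO and 1296, 1449, 1391 and 1521 in WT, again without overlap (0.33 ± 0.098, adjusted p 0.173). The Arp2/3 subunit Arpc5, at 309.6, 340.0, 299.2 and 286.0 against 284.8, 260.5, 236.0 and 246.8 CPM, had KO library 4 just above WT library 1 (0.26 ± 0.079, adjusted p 0.181). These 3, with Myl12a, are the genes whose groups did not overlap.

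Actg1 had 2763, 3051, 2120 and 2471 CPM in KO and 2220, 2238, 1787 and 1849 in WT, where KO library 3 lay below the 2 highest WT libraries (0.36 ± 0.12, adjusted p 0.221). Tpm4 had 518.1, 477.8, 363.2 and 409.9 CPM in KO and 289.3, 400.4, 296.8 and 357.4 in WT (0.40 ± 0.13, adjusted p 0.223). For Tpm4 it was again KO library 3 that lay inside the WT range. Tagln2 had 1115, 1209, 1015 and 1097 CPM in KO and 863.8, 994.6, 872.6 and 1029 in WT (0.24 ± 0.084, adjusted p 0.239).

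The last of the 10, Tpm1, had 688.1, 731.4, 621.1 and 674.4 CPM in KO and 523.3, 608.5, 576.1 and 626.9 in WT (0.22 ± 0.078, adjusted p 0.252). In Tagln2 and Tpm1 alike, 1 WT library, number 4, reached the lowest KO library. On the other side, Mylk had 31.7 ± 4.59 against 40.1 ± 6.43 CPM (-0.34 ± 0.13), Limk2 -0.20 ± 0.075 and Wasl -0.26 ± 0.11, none of them called.

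**Figure D4:**
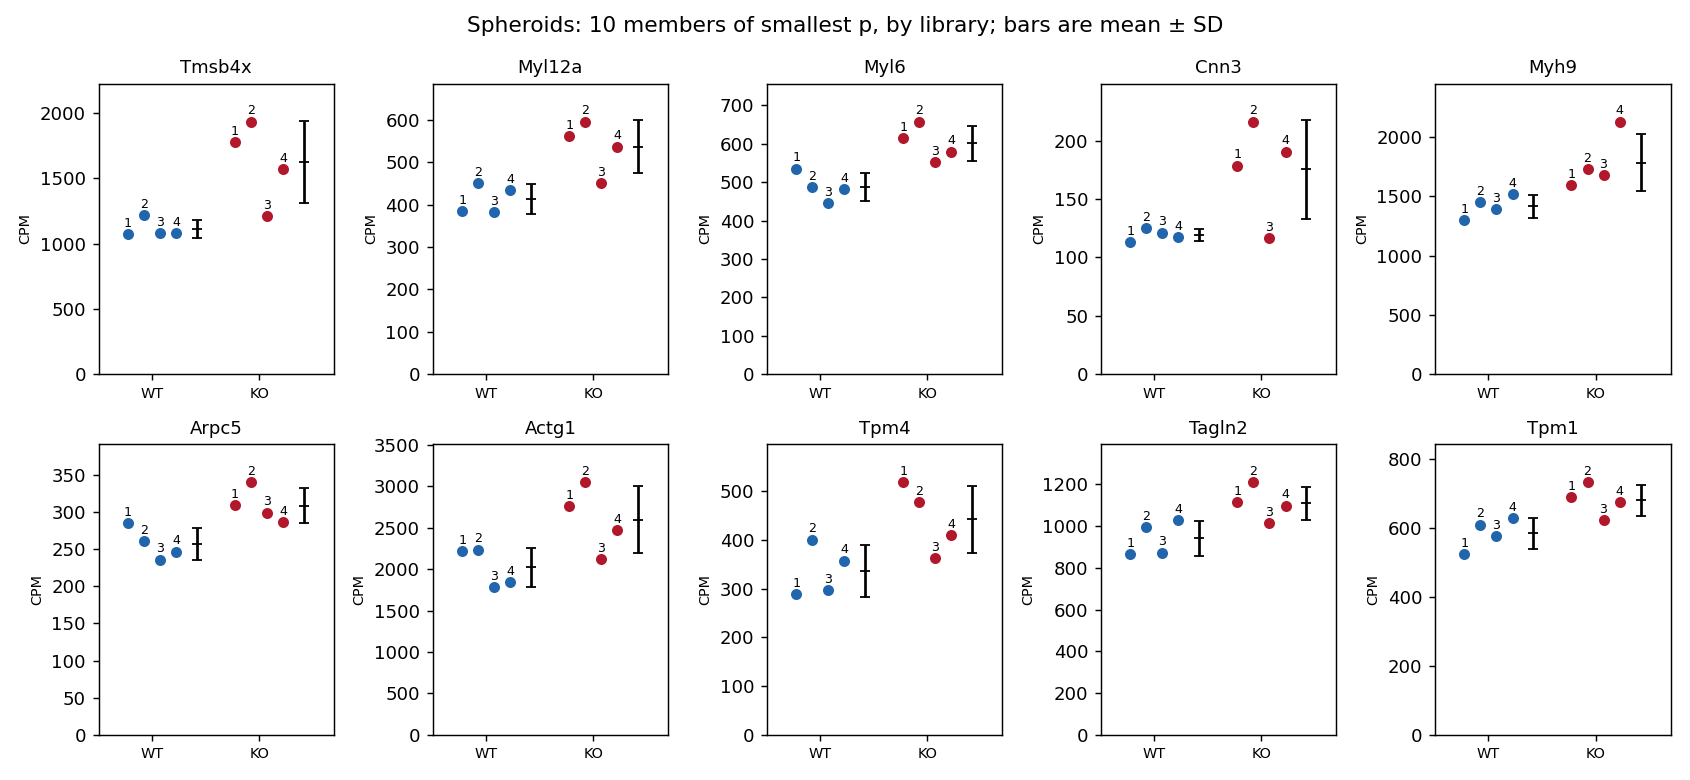
CPM of the 10 genes of smallest p in spheroids, by library (WT in blue, KO in red; black bars are mean ± SD, n = 4). Group means are higher in KO for all 10, and KO library 3 is the lowest KO library for Tmsb4x, Myl12a, Myl6, Cnn3, Actg1, Tpm4, Tagln2 and Tpm1.

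Among the other genes of the pathway, 2 of 84 tested rose in KO spheroids and 0 fell in edgeR, beside 0.189% and 0.0440% of all genes. At an unadjusted p below 0.05, 22 were higher and 0 lower, beside 7.34% and 7.27% of all genes, and the median was 0.12. The 2 called were the GTPase genes Rhoc, at 99.8 ± 5.65 against 63.3 ± 5.33 CPM (0.66 ± 0.074, adjusted p 0.0112), and Rhou, at 96.2 ± 7.74 against 66.8 ± 2.56 (0.53 ± 0.070, adjusted p 0.0214). Dapk3, a kinase of myosin light chains, followed at 0.33 ± 0.064 (adjusted p 0.0749) and was not called. Markers of stem, Paneth and goblet cells, enterocytes and dividing cells had 0 calls in spheroids, where few genes were called at all. Each of these sums overlapped between genotypes, with stem cell markers at 226.9 to 269.8 CPM in KO and 267.5 to 298.1 in WT. Enterocyte markers summed to 52.2 to 246.9 CPM in KO and 71.8 to 390.5 in WT. The 8 epithelial markers, also with 0 calls, summed to 15290 to 18060 CPM in KO and 13210 to 15050 in WT, without overlap, and their part in the values of the set was not tested. The smooth muscle markers summed to 21.8 to 28.0 CPM in KO with a median of 24.0 in WT.

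The KO effects in crypts and in spheroids were compared in 1 model over both tables. Cnn2 (difference of log2 fold changes 1.78 ± 0.44, adjusted p 0.0377) and Tagln2 (0.81 ± 0.22, adjusted p 0.0481) had larger effects in crypts, and 0 of the 48 were called lower, where 1.76% and 1.10% of 18485 genes were called higher and lower. The median difference over the set was 0.43, against 0.046 over all genes. Arpc1b (1.12 ± 0.30, adjusted p 0.05004, just short of the threshold), Myo1c (1.54 ± 0.45), Tmsb10 (1.56 ± 0.46) and Tpm4 (1.58 ± 0.49) followed without a call. Without crypt KO libraries 4 to 6 the differences were 0.76 (adjusted p 0.0904) for Cnn2 and 0.50 (adjusted p 0.205) for Tagln2. Of 24 alternatives run, Cnn2 was called in 7 (adjusted p 0.00024 to 0.0904 over all of them) and Tagln2 in 4 (0.00024 to 0.205). Culture, days after the drug and tissue differ along with the system and cannot be told apart here.

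In Caco-2, where replicate libraries lay close together, many genes of the set were called but the changes were small. Of the 47 tested, 22 rose (46.8%) and 8 fell (17.0%) in shFgfr1op, where 15.7% of 18905 genes were called higher and 16.2% lower. The share called lower is thus near that of all genes. The median over the set was 0.053, against -0.0051 over all genes, and 1 gene, MYO1A, changed by 2-fold or more. MSN (moesin) was not tested, with 1, 0 and 1 counts in scramble and 0, 3 and 0 in shFgfr1op.

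MYO1A fell most. It had 4.54, 5.12 and 5.47 CPM in shFgfr1op libraries 1 to 3 and 12.1, 12.4 and 10.5 in scramble, with no overlap (-1.21 ± 0.11, adjusted p 3.10e-12). Enterocyte markers summed to 1045 to 1204 CPM in shFgfr1op with a scramble median of 1997, with 6 of the 8 tested called lower and 1 higher. Stem cell markers summed to 129.4 to 135.0 CPM against 71.3 to 73.9, with all 4 tested called higher, and 4 of 8 epithelial markers were called lower. The part of these markers in the Caco-2 results was not tested. The other unconventional myosins split. MYO1D, a class I myosin of the brush border, rose to 343.0, 346.9 and 329.6 CPM from 254.5, 249.1 and 250.4 (0.44 ± 0.031, adjusted p 1.08e-15). MYO1C (299.1, 309.6 and 299.5 against 281.0, 272.9 and 275.6 CPM; 0.13 ± 0.031) and the minus-end-directed MYO6 (0.27 ± 0.038) also rose, and MYO5B, a carrier of recycling vesicles, fell (-0.27 ± 0.041). In MYO1C too the groups did not overlap.

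All 4 light chains rose. MYL12A had 96.8, 96.0 and 95.1 CPM in shFgfr1op and 63.8, 66.8 and 63.6 in scramble (0.57 ± 0.041, adjusted p 1.56e-15). MYL9 had 290.4, 289.7 and 289.5 CPM against 245.0, 242.4 and 246.3 (0.25 ± 0.031, adjusted p 1.04e-08). Each pair of groups was well apart, and both genes encode regulatory chains. MYL12B and MYL6 rose by 0.20 ± 0.034 and 0.11 ± 0.034.

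Heavy chains did not follow them. MYH9 rose slightly, at 1535, 1556 and 1498 CPM against 1322, 1346 and 1419 (0.17 ± 0.028, adjusted p 5.85e-06). MYH14 fell, at 232.4, 233.7 and 241.1 CPM against 292.2, 283.8 and 293.3 (-0.30 ± 0.032, adjusted p 1.37e-10). MYH10 was at -0.080 ± 0.034 and not called. Gamma-actin fell too: ACTG1 had 1462, 1520 and 1483 CPM in shFgfr1op against 1786, 1745 and 1764 in scramble (-0.25 ± 0.027, adjusted p 3.24e-10). ACTB was at 0.037, with a 95% interval from -0.014 to 0.089.

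Kinases again went both ways, with ROCK1 (0.21 ± 0.037) and LIMK1 (0.15 ± 0.042) higher and 3 lower. ROCK2 had 141.4, 129.5 and 138.4 CPM in shFgfr1op and 151.6, 152.3 and 158.8 in scramble (-0.18 ± 0.037, adjusted p 1.43e-04). LIMK2 had 50.9, 53.9 and 48.5 CPM against 65.4, 67.9 and 67.8 (-0.39 ± 0.047, adjusted p 3.87e-09). MYLK had 83.2, 79.1 and 80.8 CPM against 85.8, 87.8 and 94.2 (-0.14 ± 0.042, adjusted p 0.00776), the smallest gap between groups among the 3. The MYLK call was lost with unscaled library totals (-0.099) and without scramble library 3 (-0.10).

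RDX (radixin), an ezrin relative, had the smallest p of the set in Caco-2, with 334.8, 337.5 and 336.4 CPM in shFgfr1op and 244.1, 240.5 and 239.1 in scramble (0.48 ± 0.031, adjusted p 2.10e-17). EZR was at 0.039 ± 0.030. Cofilin rose, with CFL1 at 462.7, 484.9 and 461.3 CPM against 388.2, 386.7 and 390.9 (0.27 ± 0.030, adjusted p 3.58e-10). Thymosins rose with it: TMSB10 had 514.5, 535.7 and 522.3 CPM against 458.3, 450.2 and 453.5 (0.21 ± 0.029), and TMSB4X 185.5, 204.5 and 176.5 against 161.6, 172.3 and 170.5 (0.17 ± 0.042). Neither pair of groups overlapped.

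WASL, which switches the Arp2/3 complex on, rose to 104.8, 97.4 and 99.1 CPM from 77.4, 75.4 and 82.2 (0.36 ± 0.042, adjusted p 1.66e-09), and ARPC3, ACTR2 and CTTN rose by 0.17, 0.14 and 0.13. ARPC1B fell, at 78.6, 83.8 and 80.0 CPM against 91.6, 90.0 and 92.4 (-0.18 ± 0.041, adjusted p 4.91e-04), and ARPC2, ARPC4, ARPC5 and ACTR3 lay between -0.072 and 0.031 without a call. Formins DIAPH1 (0.093 ± 0.031) and DIAPH3 rose, the latter at 50.2, 54.7 and 49.3 CPM against 44.3, 43.2 and 43.6 (0.23 ± 0.051). CNN3 rose by 0.17 ± 0.031. CNN2 had 164.2, 158.6 and 169.3 CPM against 160.3, 144.0 and 146.8 (0.13 ± 0.038, adjusted p 0.00750), the one called gene whose groups overlapped, and was not called without scramble library 2 (0.096) or library 3 (0.11). No tropomyosin was called among the 4 (0 in edgeR, 1 at an unadjusted p below 0.05).

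**Figure D5:**
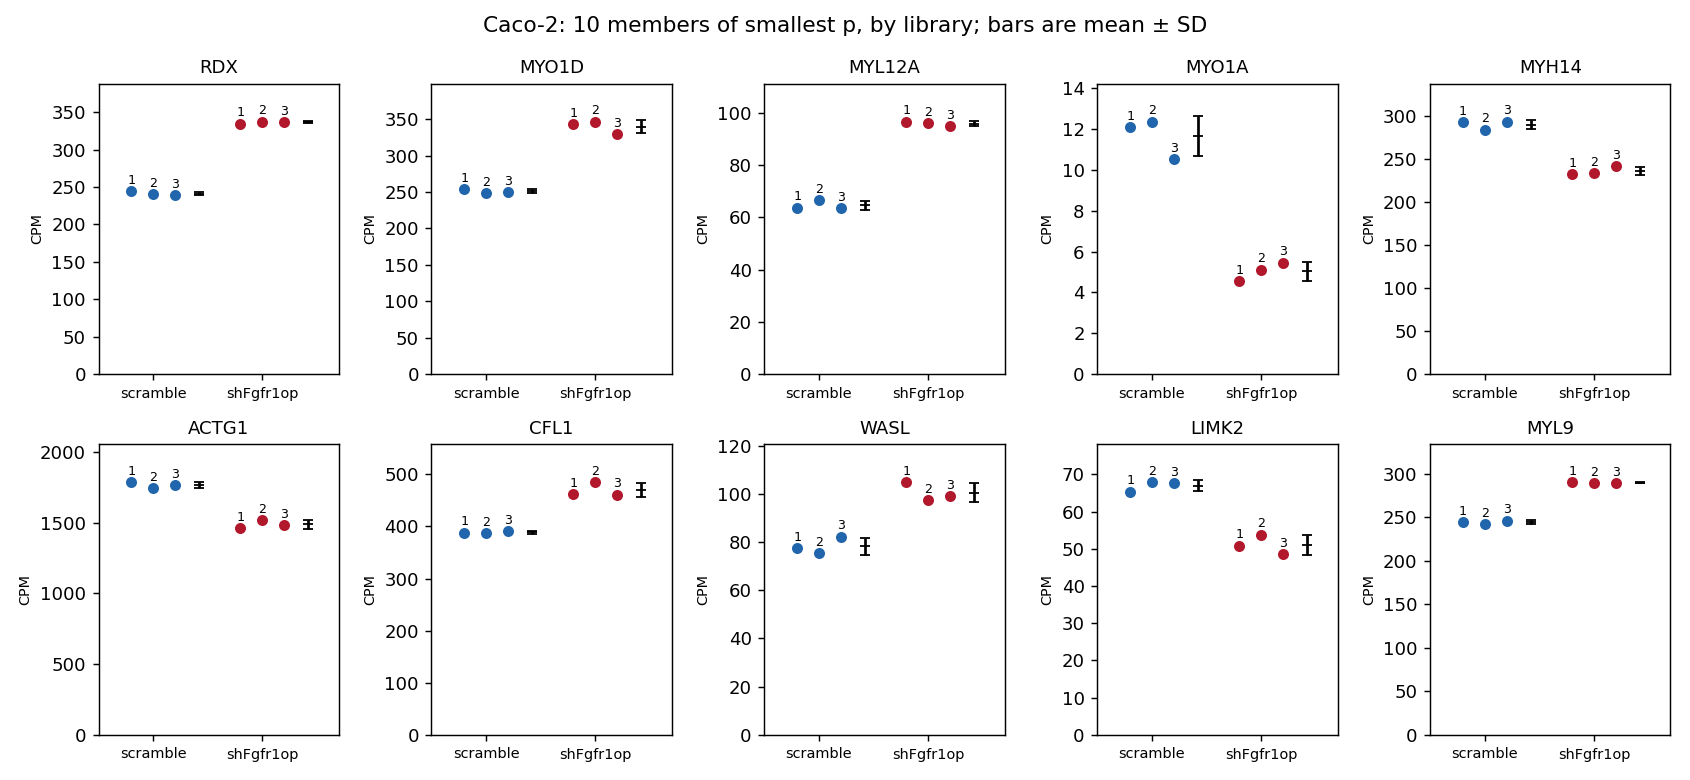
CPM of the 10 genes of smallest p in Caco-2, by library (scramble in blue, shFgfr1op in red; black bars are mean ± SD, n = 3). No panel has overlapping groups, and MYO1A, at 4.54 to 5.47 against 10.5 to 12.4 CPM, has the widest gap for its level.

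In Caco-2 the other genes of the pathway gave 29 higher and 20 lower of 85 tested, beside 15.7% and 16.2% of all genes, with a median of 0.035. MYO10, the myosin of filopodia, rose from 185.6 ± 7.72 to 260.4 ± 3.78 CPM (0.49 ± 0.034, adjusted p 2.63e-16). The cross-linker SPTBN1, a spectrin, fell from 1013 ± 59.7 to 778.8 ± 9.06 CPM (-0.38 ± 0.032, adjusted p 1.55e-12).

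Set side by side, crypts and Caco-2 shared some directions and not others. With 52.1% of the set called higher in crypts and 46.8% in Caco-2, some genes would be called in both without any link. The same joint counts over all genes were not made, so those below are a description only. Of the genes called in both, 8 rose in both (Myh9, Myl12a, Cfl1, Tmsb4x, Tmsb10, Diaph3, Cnn2 and Myo1c), 2 fell in both (Mylk and Myo1a) and 4 rose in crypts and fell in Caco-2 (Actg1, Myh14, Rock2 and Arpc1b). A further 13 were called in crypts and not in Caco-2, all higher, 16 in Caco-2 and not in crypts (14 higher and 2 lower), and 4 in neither, with MSN left over. Without crypt libraries 4 to 6 the genes called in both were Myh9, Cfl1, Tmsb10 and Cnn2, higher in each, and Arpc1b, higher in crypts and lower in Caco-2. Sizes were far apart for some genes and close for others: Myl12a was at 0.66 ± 0.16 in crypts and 0.57 ± 0.041 in Caco-2, Tmsb10 was at 1.78 in crypts and 0.21 in Caco-2, Cnn2 at 2.00 and 0.13, and Myo1a at -0.71 and -1.21. No test was made of the difference between species.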

How the data were processed

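RNA sequencing counts per gene were analysed for 8 spheroid, 12 crypt and 6 Caco-2 libraries. The authors deposited whole-number counts, with STAR, DESeq2 and the build mm10 named per the submitters' processing notes. Their versions, the strand setting and the human build are not stated in the sources at hand, so no human coordinates are printed. Columns were matched by title or genotype, and every crypt column by genotype only. The tables held 40757, 40757 and 55209 entries; repeated identifiers (276, 276 and 116) were dropped.

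Each table was fitted with edgeR 4.0.16 (R 4.3.3): filterByExpr, TMM scaling, robust quasi-likelihood F test, Benjamini-Hochberg adjustment over all genes tested (15915, 16413 and 18905) and a call at an adjusted p below 0.05. SE is the log2 fold change divided by the square root of F. CPM use TMM-scaled totals. KO effects in crypts and spheroids were compared by an interaction term over both mouse tables. Pairs of replicates differed by more than sampling noise (chi-square per degree of freedom 3.98 to 996.8), so each library was counted once. The fits were run on simulated counts with the same spread set for every gene. This checks the code and does not show how the fits do on the crypt libraries, whose spread is larger and uneven.

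Gene models are GENCODE M21, promoters RefSeq GRCm38.p6, and near-identical copies were sought with blastn 2.17.0 (at least 95% over 200 bases): 17 of the 48 genes had such a copy and 10 shared exon bases with an antisense gene, among them Arpc1b, Cfl1, Ezr, Myh14 and Mylk, so their counts are uncertain to that extent. Pathway and marker lists were matched by symbol. Values are given by library, or as range and median, for the 10 genes of smallest p in each comparison and for any called in more than 1, and up to 3 pathway genes of smallest p per comparison are named; 1 gene that this rule takes is not reported here. The genes and lists were chosen with earlier results of these data known. Alternatives were RLE scaling, unscaled totals, no filter, a filter of 1 CPM, DESeq2 1.42.0, limma 3.58.1 voom with quality weights, a replicate block and each library left out; unscaled totals and the fit without 3 crypt KO libraries were added after the data were seen.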

Additional observations from a re-analysis of the deposited data

Results flagged for a closer look

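In 44 checks of single groups, 2 had a library far from the others, about what chance gives at 1 in 20. Tmsb4x in spheroid WT was at 1217 CPM in library 2, with the other 3 at 1073 to 1082. Tmsb10 in crypt WT was at 182.2 CPM in library 1, with the other 5 at 102.1 to 127.3. The effect of KO was larger in crypts than in spheroids for Cnn2, by 1.78 on the log2 scale, and for Tagln2, by 0.81; both calls were lost without crypt KO libraries 4 to 6.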

How the results depend on the processing

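No called value with results above changed sign in any alternative run. In spheroids 0 genes of the set were called higher, 1 without the filter, 5 with DESeq2 and 0 to 3 with a library left out, 3 only without KO library 3; genes called over the whole table went from 37 to 154 without the filter, 577 with DESeq2, 71 with the replicate block, 3 without WT library 3 and 160 without KO library 3. In crypts 25 higher and 2 lower became 7 and 0 without KO libraries 4 to 6, 33 and 2 with voom, and 17 to 29 and 2 with 1 library left out. Unscaled totals moved the median of all crypt genes to 0.16 and of the set to 0.65, with 30 higher and 2 lower. Fgfr1op in crypts ran from -0.74 to -0.52 with a library left out, and lost its call without WT library 2 (-0.59) or 6 (-0.61). The lowest crypt counts came without WT library 5 (17) and WT library 4 (18). Of the 16 genes given by range and median in crypts, Myh14 (0.90) and Diaph3 (0.62) lost their calls without WT library 5. In Caco-2, 19 to 25 were higher and 7 to 10 lower over all alternatives. For KO effects in crypts against spheroids, 2 higher and 0 lower became 1 and 0 with RLE, 0 and 0 without the filter, 22 and 3 with voom, 0 and 0 without crypt KO libraries 4 to 6, and 0 to 8 and 0 to 1 with a library left out. Calls over all genes are not set beside these crypt, Caco-2 and crypt against spheroid counts. They therefore show only how the counts of the set moved. Where unexplained by fewer samples or genes, the cause was not tested.

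With the replicate block, 0 genes of the set were called in spheroids, and 22 higher and 8 lower in Caco-2, as without it. Same-numbered libraries correlated at -0.0295 to 0.0982 in spheroids and 0.00332 to 0.0437 in Caco-2. Those with different numbers correlated at -0.242 to 0.304 and at -0.0482 to 0.0341. The numbers thus gave no sign of pairing, though so few pairs cannot exclude it. In crypts, no paired analysis was possible because the columns do not show which sample they hold. Genes under about 1 CPM (Myl9, Limk1, Rdx and Tpm2 in crypts) are limited by counts.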
